A study of Pimephales promelas with 26 samples.

Results

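The 150 transcripts described here were those of whole fathead minnow (Pimephales promelas) larvae whose levels were high after exposure to 0.19, 0.74 and 47.2 µg/L of the antidepressant fluoxetine and low after 3.38 and 10.2 µg/L and in water without the drug. They were chosen from 15084 messenger RNA models with a mean of at least 10 CPM (counts scaled to a library total of 1000000) over 26 libraries, out of 57299 transcripts in the table. For each transcript, log2(CPM + 1) was averaged within each concentration, and the gap was the lowest mean among 0.19, 0.74 and 47.2 µg/L (the high groups) minus the highest mean among water, 3.38 and 10.2 µg/L (the low groups). The 150 largest gaps were taken, with 8 named transcripts left out by the rule, so the order of the high against the low groups was fixed by the choice and is given as a description, with no test.

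Each library came from a pool of 20 whole larvae from 1 dish, exposed through the water from 6 h to 7 days after fertilization, so differences between tissues and between larvae of a pool are averaged. There were 3 libraries at 0.19 µg/L, 5 at 0.74, 3 at 47.2, 5 in water, 5 at 3.38 and 5 at 10.2. Concentrations are measured ones, and no strain, sex or genotype was given in the labels. Library totals ran from 13515478 to 27614956 estimated counts, and 3 counts, taken as the limit of detection, were 0.109 to 0.222 CPM. In whole larvae, fewer cells of a type and less RNA per cell cannot be told apart.

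Fluoxetine blocks the reuptake of serotonin by neurons. Many of the named members belonged to another group of genes, those of the extracellular matrix. Fibrillar collagens and the collagens bound to their surface give cartilage, skin and fin their tensile strength, matrilins and proteoglycans link them to other components, and integrins anchor cells to the network. Actinodins are structural proteins of the actinotrichia, the stiff fibres of the larval fin fold in fish. At this age cartilage, notochord sheath, skin and fin folds are laying down matrix.

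Of the members, 103 were paired with a gene and 98 with a gene symbol, standing for 95 symbols. The cartilage, bone and matrix list had 53 transcripts past the level minimum, and 15 of them were members, from 14 genes. Among 40 collagen transcripts, a family picked by symbol after values had been seen, 15 were members as well, and the 2 sets together gave 22 members. All 3 actinodin transcripts measured (and1, and2, and3) were members. The 128 members outside both sets included the actinodins, further genes of the matrix (vcanb, vit, tnn, tnxba and lamc3), the integrin genes itgav and itgb1a and the 47 members that were paired with no gene.

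The median gap of the members was 0.508 on the log2 scale, with 3.57 for the transcript of LOC120492893, 1.86 for the next one, vit, and 0.40 for the last. The median difference between the mean of the high and of the low groups was 0.98, which is 1.98-fold. A gap above 0, meaning that every high group mean exceeded every low one, was found in 2889 of 15084 transcripts (19.2%), and the opposite order in 3412 (22.6%). At the limit of the choice, the last 3 members (XM_039653003.1, tenm3 and nnt) had gaps of 0.4005, 0.4001 and 0.3998, and the transcripts just outside (col1a1a, ptena and XM_039686448.1) had 0.3993, 0.3986 and 0.3984, so the limit cuts through a continuous range. col1a1a, the chain of type I collagen that lay just outside, had mean log2 levels of 11.43, 11.14 and 11.02 at 0.19, 0.74 and 47.2 µg/L, against 10.62, 10.46 and 10.21 in water and at 3.38 and 10.2 µg/L.

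Averaged over all members, log2(CPM + 1) was 5.48 ± 0.066 at 0.19 µg/L (SD, n = 3), 5.34 ± 0.194 at 0.74 (n = 5) and 5.38 ± 0.229 at 47.2 (n = 3). It was 4.54 ± 0.155 in water, 4.21 ± 0.351 at 3.38 and 4.09 ± 0.508 at 10.2 µg/L (n = 5 each). The lowest library of the high groups, 0.74 µg/L E, stood at 5.11, and the highest of the low groups, 3.38 µg/L B, at 4.76. Over the 15084 transcripts the same mean lay between 4.74 and 4.88 in every library. By the rule, the mean had to lie above water at 0.19, 0.74 and 47.2 µg/L, so no order with the concentration was possible. It was below water at 3.38 and 10.2 µg/L. The rule set no order among these and water, though the choice by the highest low mean bears on it.

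**Figure D1:**
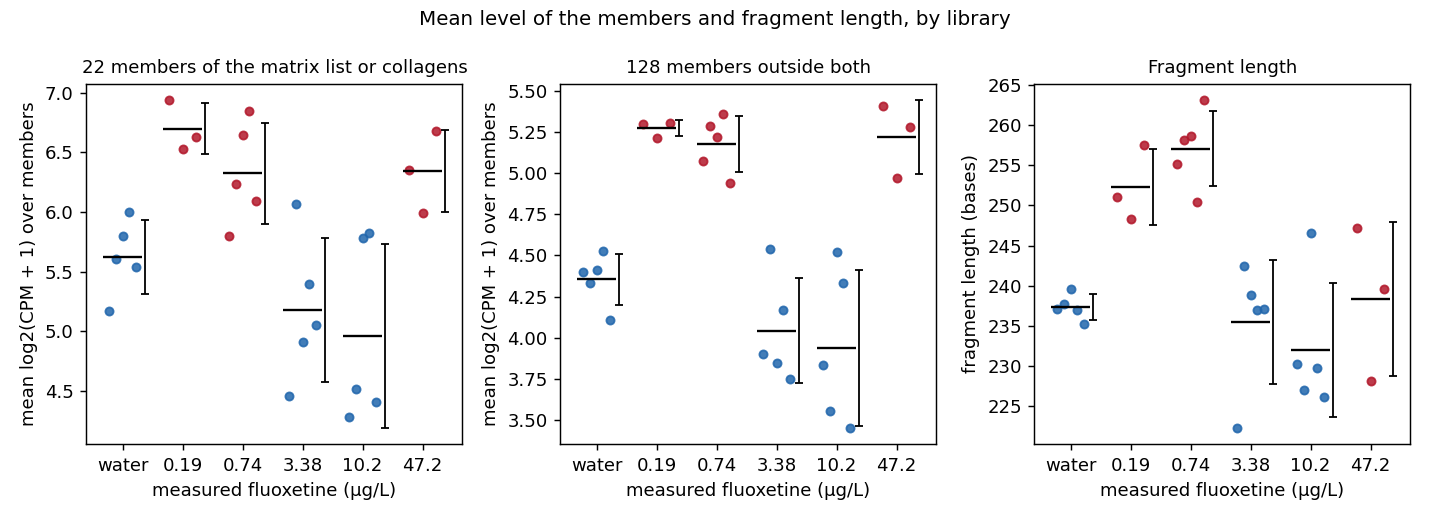
Mean log2(CPM + 1) of the 22 members in the matrix list or the collagen family (left) and of the 128 members outside both (middle), and fragment length in bases (right), against measured fluoxetine in µg/L; each point is a library, lines are group means, bars SD, red the high groups and blue the low groups. Both member sets are high at 0.19, 0.74 and 47.2 µg/L, and fragment length is longest at 0.19 and 0.74 µg/L but overlaps that of the low groups at 47.2 µg/L.

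The 22 members in the matrix list or the collagen family and the 128 outside both, which still hold other matrix genes, followed the same order. The 22 averaged 6.70 ± 0.214, 6.33 ± 0.422 and 6.34 ± 0.344 at 0.19, 0.74 and 47.2 µg/L, against 5.62 ± 0.31 in water, 5.18 ± 0.599 at 3.38 and 4.96 ± 0.77 at 10.2 µg/L. The 128 averaged 5.27 ± 0.048, 5.18 ± 0.168 and 5.22 ± 0.224 in the high groups, in the same order, and 4.35 ± 0.155, 4.04 ± 0.319 and 3.94 ± 0.473 in the low ones. The means of the 22 overlapped between libraries of the high and the low groups, since 0.74 µg/L A had 5.80 and 3.38 µg/L B had 6.07. Those of the 128 did not, with 4.94 in the lowest library of the high groups and 4.54 in the highest of the low groups. Within groups, replicate A was the lowest of its group for the 22 at 0.74 µg/L (5.80), in water (5.17), at 3.38 (4.46) and at 10.2 µg/L (4.28), but the highest at 0.19 µg/L (6.94).

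Single libraries stood apart within the low groups. At 3.38 µg/L the B library averaged 4.76 over all members and the other 4 lay between 3.94 and 4.35. At 10.2 µg/L the C and D libraries averaged 4.71 and 4.55 and the other 3 lay between 3.59 and 3.90. Those 3 libraries were near the level of water, whose libraries ran from 4.32 to 4.74.

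**Figure D2:**
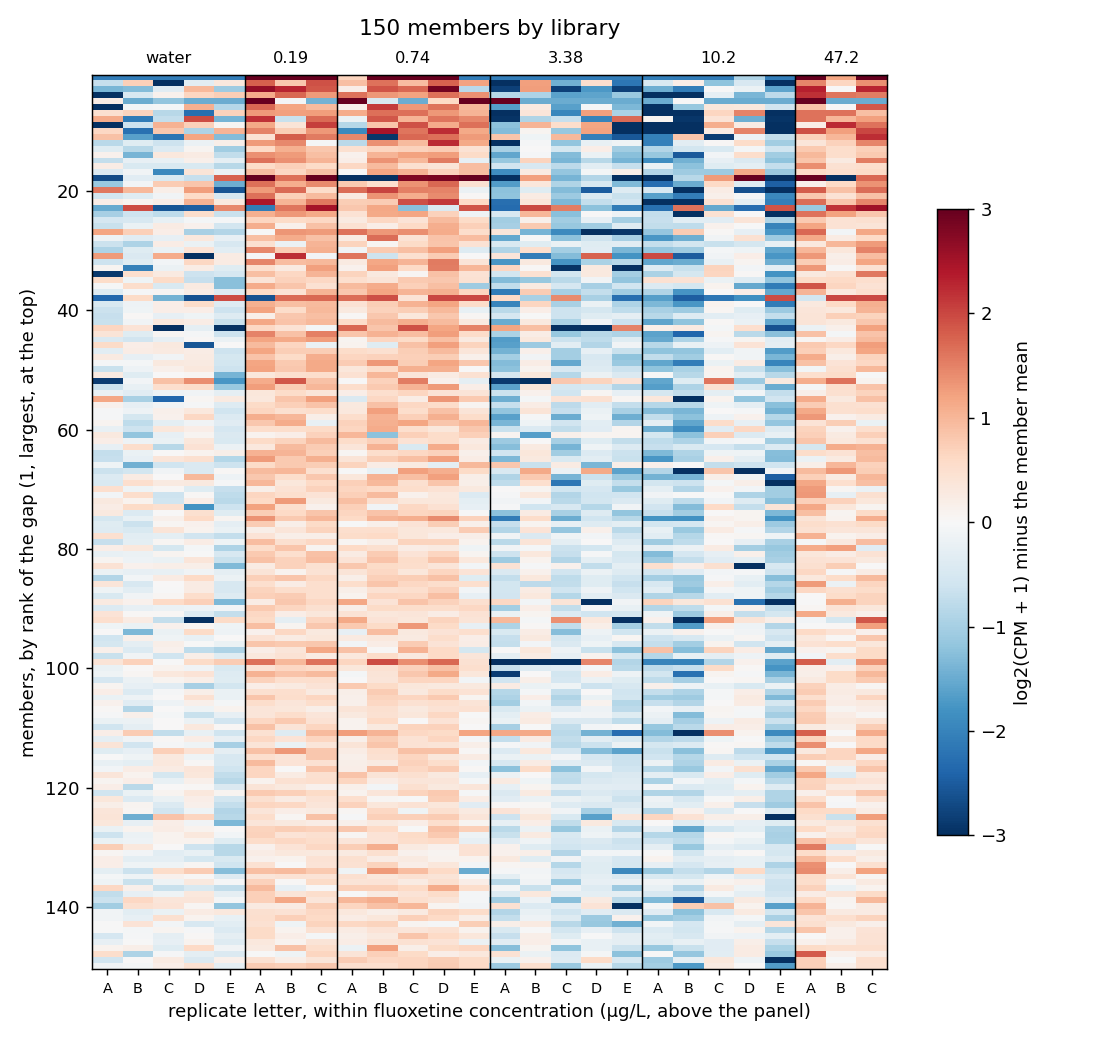
The 150 members (rows, by rank of the gap) in the 26 libraries (columns, by measured fluoxetine in µg/L and replicate letter), coloured by log2(CPM + 1) minus the member's mean over all libraries. The 11 libraries at 0.19, 0.74 and 47.2 µg/L are mostly red, the others mostly blue, with paler columns for 3.38 µg/L B and 10.2 µg/L C and D; dark cells in a few rows are values near 0.

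Fragment length, which was computed from the deposited lengths and effective lengths, moved with the members in part. It was 248.3 to 257.5 bases at 0.19 µg/L, 250.4 to 263.1 at 0.74 and 228.1 to 247.2 at 47.2, against 235.2 to 239.6 in water, 222.3 to 242.4 at 3.38 and 226.2 to 246.5 at 10.2 µg/L. The 47.2 µg/L B library combined a short fragment length of 228.1 bases with a member mean of 5.12, above every library of the low groups. The 10.2 µg/L C library combined 246.5 bases with 4.71. Within groups, the library with the longest fragments had the highest member mean at 3.38 (B), 10.2 (C) and 47.2 µg/L (A). In water and at 0.19 µg/L it did not. At 0.74 µg/L the E library had the longest fragments, 263.1 bases, and the lowest member mean, 5.11. The members were also long transcripts, with a median length of 3905 bases against 2953.5 over the 15084, and 66% of them, against 49.0%, had 3000 bases or more. The part of fragment length in the members' levels was not tested.

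Cartilage collagens had some of the largest gaps. col2a1a, a gene for type II collagen, the main fibril of cartilage and of the notochord sheath, had 353, 288 and 226 CPM in the libraries at 0.19 µg/L, 127, 282, 219, 327 and 93.9 at 0.74, and 199, 134 and 323 at 47.2. It had 67.2, 93.0, 95.3, 122 and 92.0 CPM in water, 50.1, 177, 41.9, 62.0 and 41.3 at 3.38, and 29.6, 40.9, 93.5, 81.2 and 47.5 at 10.2 µg/L. The sets overlapped: 3.38 µg/L B exceeded 3 of the 11 libraries of the high groups, and the lowest library at 0.74 µg/L was below 3 libraries of the low groups. These are levels of 1 of the 2 transcripts paired with col2a1a, which held 28.2% of the counts of the 2 in the high groups and 12.9% in the low ones. Transcripts that were paired with no gene are not counted in such shares. The other, more abundant transcript of col2a1a averaged 570 CPM in the high groups and 472 in the low ones, with a gap of 0.003.

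Its paralog col2a1b averaged 376 ± 23.4, 338 ± 75.0 and 309 ± 84.4 CPM at 0.19, 0.74 and 47.2 µg/L, against 191 ± 58.9 in water, 142 ± 97.9 at 3.38 and 115 ± 78.6 at 10.2 µg/L. Type IX collagen coats type II fibrils, and the member of col9a1c with the larger gap had 332, 224 and 283 CPM at 0.19, 181, 148.5, 267, 349 and 145 at 0.74, and 116, 158 and 266 at 47.2 µg/L. In the low groups it had 48.0, 99.3, 178, 187 and 37.0 CPM in water, 32.3, 133, 55.3, 74.6 and 41.5 at 3.38, and 20.6, 36.4, 158, 81.5 and 18.4 at 10.2 µg/L. Water C and D were thus as high as libraries at 0.74 and 47.2 µg/L. col9a1a, col10a1a and col11a1b, for chains of types IX, X and XI of cartilage, had gaps of 0.44, 0.49 and 0.43.

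matn4, for a matrilin, a protein that bridges cartilage fibrils and proteoglycans, had 219, 82.0 and 123 CPM at 0.19 µg/L, 67.2, 69.0, 157, 178 and 61.2 at 0.74, and 131, 72.7 and 113 at 47.2. It had 46.3, 42.8, 46.1, 83.5 and 49.5 CPM in water and 7.59, 51.9, 15.1, 23.9 and 26.9 at 3.38. At 10.2 µg/L it had 55.1 and 33.2 CPM in C and D, 8.97 in E, and was under the limit of detection in A and B. Apart from water D, each library of the low groups was below each of the high groups.

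**Figure D3:**
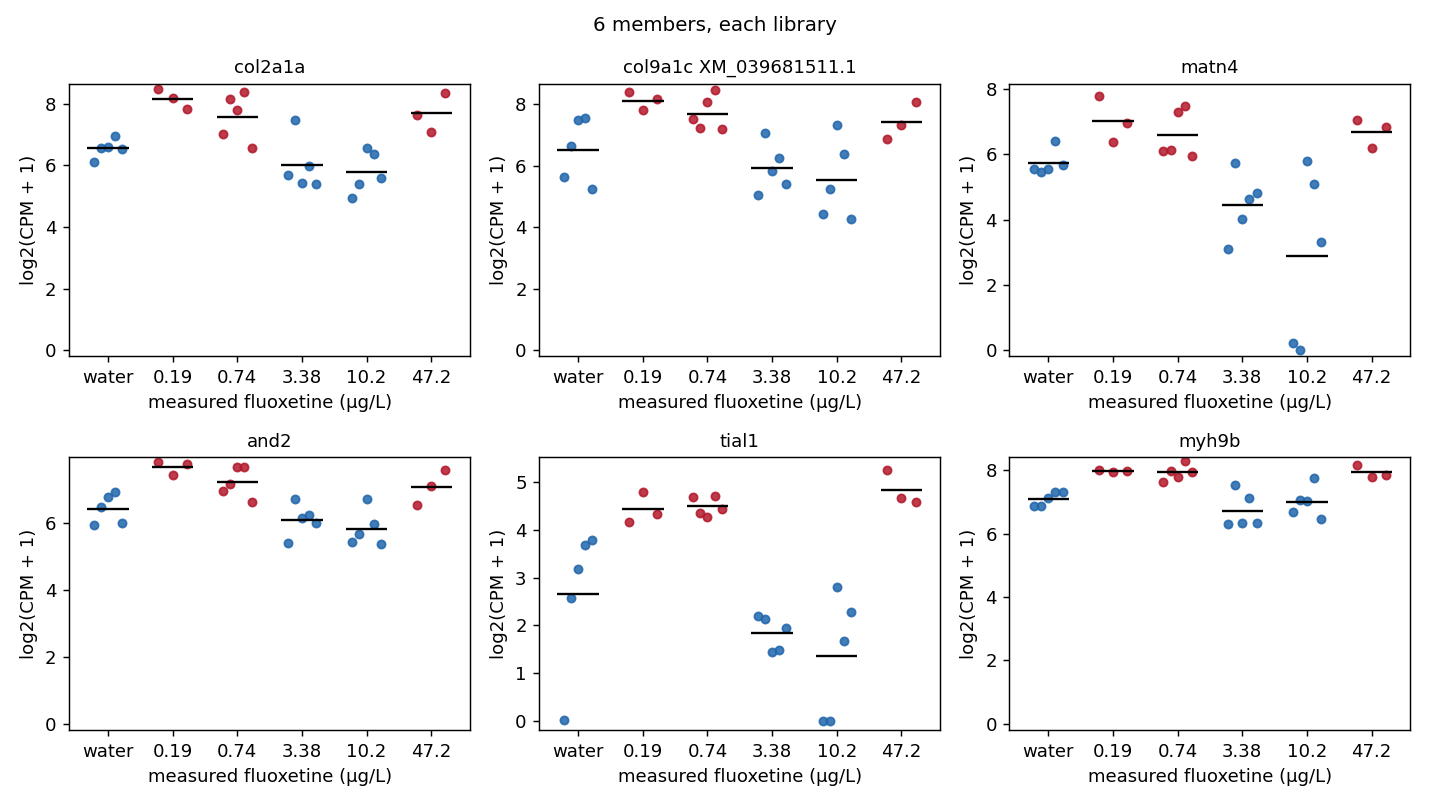
log2(CPM + 1) of 6 members against measured fluoxetine in µg/L; points are libraries, lines group means, red the high groups and blue the low groups. col2a1a, col9a1c, matn4 and and2 vary widely within groups at 3.38 and 10.2 µg/L, tial1 separates all 11 libraries of the high groups from the 15 others, and myh9b averages 245 to 251 CPM in the high groups.

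The actinodins went together. and2 had 228, 171 and 217 CPM at 0.19 µg/L, 123, 143, 205, 205 and 98.4 at 0.74, and 92.4, 136 and 192 at 47.2, against 60.7, 88.1, 109, 122 and 63.2 in water, 41.2, 105, 69.6, 75.0 and 62.4 at 3.38, and 42.0, 50.0, 105, 61.3 and 40.5 at 10.2 µg/L. The summed level of and1, and2 and and3 averaged 490 ± 74 CPM at 0.19, 385 ± 105 at 0.74 and 326 ± 109 at 47.2 µg/L, against 220 ± 75 in water, 174 ± 64 at 3.38 and 147 ± 67 at 10.2 µg/L. The highest library of the low groups, a water one, had 314 CPM and the lowest of the high groups, at 47.2 µg/L, had 228, so these sums overlapped. and1 and and2 were also among the 10 named members highest in TPM (a level per transcript length), with means of 66.1 and 82.7 TPM over all libraries.

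Skin and general connective tissue gave further members. postnb, for periostin, a matricellular protein, averaged 201 ± 21.8, 175 ± 38.0 and 144 ± 28.9 CPM at 0.19, 0.74 and 47.2 µg/L, against 91.7 ± 29.1 in water, 73.5 ± 35.1 at 3.38 and 59.8 ± 32.9 at 10.2 µg/L. Its highest low-group libraries, water C and 3.38 µg/L B, both had 124 CPM, and its lowest high-group ones, 0.74 µg/L E and 47.2 µg/L B, both had 123. Chains of fibrillar type V collagen (col5a1 and col5a2b), fibril-associated col12a1a, the large proteoglycan gene vcanb and 2 of the 3 transcripts of fn1b, for fibronectin, had gaps of 0.89, 0.48, 0.47, 0.70, 1.203 and 0.44. lum and ogna, for small leucine-rich proteoglycans that set fibril spacing, had gaps of 0.50 and 0.43. Of the 9 transcripts of this family that were not members, 3 had a gap above 0 and 1 the opposite order. spp1, for osteopontin of bone matrix, averaged 34.3 ± 5.48, 29.7 ± 4.15 and 33.6 ± 6.63 CPM in the high groups, against 21.6 ± 4.38 in water, 18.2 ± 3.1 at 3.38 and 14.6 ± 1.76 at 10.2 µg/L.

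col17a1a, for a transmembrane collagen that ties basal epidermal cells to the basement membrane, had a gap of 0.97 and varied widely within groups. It had 270, 36.6 and 132 CPM at 0.19 µg/L, and 173 and 37.9 CPM at 47.2 with the B library under the limit of detection. At 0.74 µg/L it had 82.1, 85.1 and 175 CPM in C, D and E and was under the limit in A and B. In the low groups it reached 39.4 CPM in water E, 26.7 in 3.38 µg/L B and 95.8 in 10.2 µg/L D. Among genes named after their values were seen, col28a2a was the collagen whose libraries did not overlap, with 30.4 to 56.3 CPM in the high groups and 6.84 to 29.2 CPM in the low ones.

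Basement membranes were represented by col4a5 and lamc3, for chains of type IV collagen and laminin, which were named after their values were seen. col4a5 averaged 235 ± 24.0, 208 ± 44.6 and 203 ± 30.9 CPM at 0.19, 0.74 and 47.2 µg/L, against 147.8 ± 31.8 in water, 110 ± 39.2 at 3.38 and 103 ± 52.7 at 10.2 µg/L. lamc3 averaged 31.9 ± 3.76, 33.8 ± 10.5 and 31.1 ± 8.09 CPM, against 22.2 ± 9.43, 14.0 ± 11.1 and 10.99 ± 8.14. In both, water D and 3.38 µg/L B reached the range of the high groups, with 203 and 170 CPM for col4a5 and 38.1 and 33.6 CPM for lamc3. Of the 10 laminin transcripts that were not members, 4 had a gap above 0 and 1 the opposite order.

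Beyond the members, most of the matrix list had the same order of means. The list and the split into high and low groups were both chosen with earlier results of these data known, so the counts are a description, with no test. Of the 38 transcripts of the list that were not members, 29 (76.3%) had a gap above 0 and 0 the opposite order, against 2739 (18.3%) and 3412 (22.8%) of all 14934 transcripts that were not members. Transcripts that the rule left out by name are counted here, 1 of them in the matrix list with a gap above 0. The summed level of these 38 averaged 9119 ± 778, 7925 ± 1506 and 8066 ± 1939 CPM at 0.19, 0.74 and 47.2 µg/L, against 6425 ± 1459 in water, 5955 ± 1285 at 3.38 and 5263 ± 1683 at 10.2 µg/L. The ranges overlapped, with 6173 to 10086 CPM in the high groups and 3730 to 8180 in the low ones. Of the 25 collagen transcripts that were not members, 16 (64.0%) had a gap above 0 and 0 the opposite order. The exceptions included the second transcript of col19a1 (XM_039651732.1), whose gap was -0.48, and col9a1b, with -0.21.

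Other lists, also chosen with earlier results of these data known, are given here with the members left out. A gap above 0 was found in 16 of 29 epidermis and ionocyte transcripts (55.2%), 11 of 27 exocrine pancreas and intestine transcripts (40.7%), 20 of 47 lysosome transcripts (42.6%) and 7 of 13 integrin transcripts (53.8%). Among photoreceptor transcripts 1 of 29 had it and 23 the opposite order (79.3%), and among neuron and synapse transcripts 3 of 80 had it and 40 the opposite order. Ribosome (43 of 73) and oxidative phosphorylation transcripts (43 of 76) also leaned to the opposite order. CPM values of a library share 1 total, so a higher share for some genes goes with a lower share for others. The summed photoreceptor level was 3198 ± 295, 3667 ± 304 and 3227 ± 255 CPM at 0.19, 0.74 and 47.2 µg/L, against 3945 ± 345 in water, 4399 ± 536 at 3.38 and 4729 ± 971 at 10.2 µg/L, and its part in the members' levels was not tested.

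**Figure D4:**
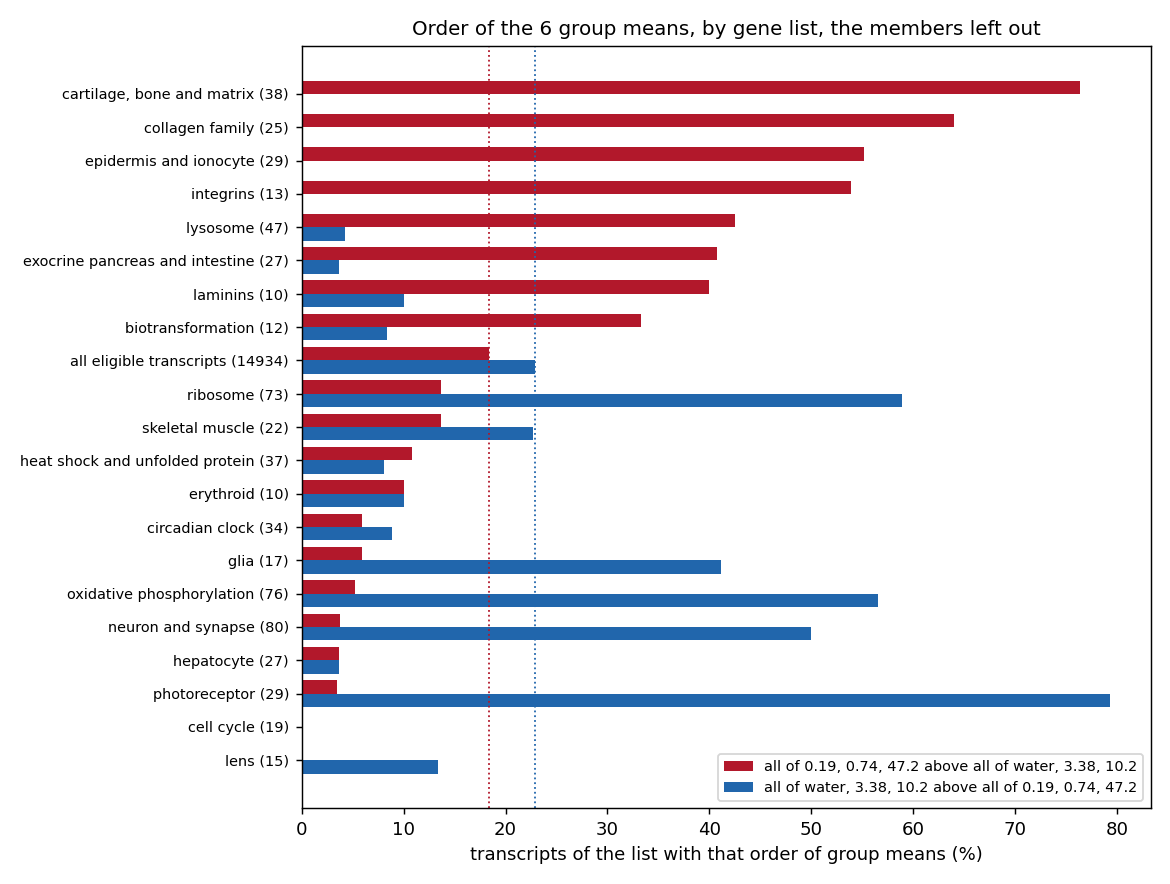
Share of each list's transcripts, the members left out (in %, number of transcripts in brackets), whose 3 high group means all exceed the 3 low ones (red) or the opposite (blue); dotted lines mark 18.3% and 22.8%, the shares of all 14934 transcripts that were not members. The matrix list and the collagens stand at 76.3% and 64.0% red with no blue, photoreceptors at 79.3% blue.

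Members outside the matrix had several roles. Cell adhesion and the cytoskeleton gave myh9b, for a non-muscle myosin heavy chain, with 255, 244 and 252 CPM at 0.19 µg/L, 198, 253, 220, 315 and 244 at 0.74, and 284, 222 and 231 at 47.2. It had 115, 116, 140, 158 and 158 CPM in water, 78.7, 183, 79.0, 138 and 80.1 at 3.38, and 101, 131, 130, 216 and 87.9 at 10.2 µg/L, so that of the low groups only 10.2 µg/L D passed the lowest library of the high groups. The integrin members itgav and itgb1a, named after their values were seen, averaged 135 ± 22.3 and 68.0 ± 6.61 CPM at 0.19 µg/L, against 97.3 ± 12.1 and 50.8 ± 7.15 in water. The 15 integrin transcripts, these 2 included, summed to 485 ± 48, 458 ± 47 and 512 ± 52 CPM at 0.19, 0.74 and 47.2 µg/L. In water and at 3.38 and 10.2 µg/L they summed to 388 ± 34, 356 ± 40 and 350 ± 72 CPM. sptbn1, for a spectrin chain of the membrane skeleton, averaged 73.9 ± 4.61, 76.4 ± 11.8 and 65.4 ± 14.7 CPM in the high groups, against 46.6 ± 6.88 in water, 37.3 ± 8.15 at 3.38 and 40.3 ± 24.1 at 10.2 µg/L.

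Among the most abundant named members were a muscle tropomyosin and digestive enzymes. tpma, for a tropomyosin of skeletal muscle thin filaments, had 2059, 2013 and 2030 CPM at 0.19 µg/L, 1089, 1354, 1968, 1536 and 1354 at 0.74, and 1580, 1676 and 1461 at 47.2, against 802 to 1315 in water, 709 to 1104 at 3.38 and 568 to 1252 at 10.2 µg/L. It was the only one of 23 skeletal muscle transcripts among the members, and 3 of the other 22 had a gap above 0. The member was 1 of 2 transcripts paired with tpma and held 28.1% of the counts of the 2 in the high groups and 16.3% in the low ones. The other transcript averaged 5565 and 6363 CPM, a log2 difference of -0.16 ± 0.07 (SE, adjusted p = 0.12, edgeR's quasi-likelihood test). Summed over both transcripts, the chosen one included, tpma differed by 0.02 ± 0.06. prss1 and cpb1, for the pancreatic proteases trypsin and carboxypeptidase B, averaged 1066 ± 107 and 347 ± 48.6 CPM at 0.19, 918 ± 218 and 331 ± 87.5 at 0.74, and 943 ± 331 and 353 ± 189 at 47.2 µg/L. In the low groups they averaged 680 ± 172 and 246 ± 80.2 in water, 627 ± 115 and 196 ± 39.6 at 3.38, and 564 ± 175 and 198 ± 58.9 at 10.2 µg/L. The water libraries of prss1 ran from 447 to 826 CPM and overlapped the high groups, where 0.74 µg/L E had 574 and 47.2 µg/L B had 715.

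ddit3, for a stress-induced transcription factor also called CHOP, averaged 74.5 ± 9.89, 75.2 ± 8.27 and 95.6 ± 26 CPM in the high groups, against 53.3 ± 11.5 in water, 56.2 ± 13.2 at 3.38 and 54.7 ± 7.75 at 10.2 µg/L. It was the member among 38 transcripts of the heat shock and unfolded protein list, and 4 of the other 37 had a gap above 0. abcb5, for a membrane transporter, averaged 99.4 ± 21.7, 98.3 ± 37.6 and 95.9 ± 3.14 CPM, against 72.0 ± 18.7, 44.6 ± 18.4 and 47.0 ± 19.5 in water and at 3.38 and 10.2 µg/L. Of 3 serotonin signalling transcripts past the level minimum, none was a member, 2 had a gap above 0 and 0 had the opposite order.

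Whether the concentrations differed within each side was tested with edgeR's quasi-likelihood F-test. Among 0.19, 0.74 and 47.2 µg/L, 3 of 43837 transcripts were called at an adjusted p below 0.05 (0.00684%), and none of the 150 members was. At an unadjusted p below 0.05 there were 0 members, against 4.94% of all 43837 transcripts, which include those under the level minimum. The choice of members by their lowest high mean favours like means, so this count does not show equal levels. The median log2 difference of the members was -0.13 for 0.74 minus 0.19 µg/L, -0.09 for 47.2 minus 0.19 and 0.01 for 47.2 minus 0.74. The highest of the 3 means was at 0.19 µg/L in 79 members, at 0.74 in 32 and at 47.2 in 39.

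Among water, 3.38 and 10.2 µg/L the F-test called 0 of 43837 transcripts (0%) and 0 of the members. At an unadjusted p below 0.05 in edgeR there were 11 members (7.33%), against 3.73% of all 43837 transcripts. Most of these lay outside the 15084 from which the members were chosen, and the share over the 15084 is not given here. The members were also chosen on these group means, so the 3.73% is not a like background for the 7.33%. DESeq2 called 3 transcripts and 0 members. It had 17 members at an unadjusted p below 0.05, but its own share over all transcripts is not given here, so the 3.73% is no background for them. The members lay below water in most cases, with a median log2 difference of -0.27 at 3.38 µg/L (121 below) and -0.33 at 10.2 µg/L (134 below), while the medians over the 15084 transcripts were 0.01 and 0.00. The lowest mean was at 10.2 µg/L in 97 members, at 3.38 in 41 and in water in 12. The choice by the highest low mean bears on this order as well, and no single member passed the test.

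Many members were 1 of several transcripts of a gene, between which kallisto divides shared reads. Shares and numbers of transcripts count only the transcripts paired with a gene, 31554 of 57299. Any unpaired transcript of the same gene is missing from them. 61 members had at least 1 further transcript of their gene in the table, and 28 of them (45.9%) were the most abundant one, against 68.2% of the 4822 transcripts of such genes among the 15084. In 30 of the 61, the share of the gene's counts held by the member was at least 10 percentage points higher in the high groups, and in 15 it was within 5 points. The members were chosen for being high in these groups, so a higher share there, here and below, follows in part from the choice. The same counts over the 4822 transcripts are not given here. tial1, for an RNA-binding protein that acts in splicing and stress granules, held 63.2% in the high groups and 25.3% in the low ones. Its member had 17.1, 26.7 and 19.2 CPM at 0.19 µg/L, 24.9, 19.5, 18.4, 25.1 and 20.6 at 0.74, and 37.3, 24.3 and 23.1 at 47.2. In the low groups the highest libraries had 12.8 CPM in water, 3.59 at 3.38 and 5.97 at 10.2 µg/L, and water A and 10.2 µg/L A and B were under the limit of detection.

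tial1 was 1 of 6 members in which each of the 11 libraries of the high groups exceeded each of the 15 others, which 20 of the 15084 transcripts did (0.133%) and 59 did in the opposite direction. The others were septin7a, for a filament-forming septin, col28a2a, a transcript of atp2a2a, for a calcium pump of the endoplasmic reticulum, and 2 transcripts with no gene, XM_039661343.1 and XM_039660786.1. septin7a had 26.5 to 38.2 CPM in the high groups and 13.8 to 26 in the low ones.

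Several members with large gaps were at or near 0 in some libraries. vit, for vitrin, a protein of the matrix, held 54.1% of its gene's counts in the high groups and 22.9% in the low ones, with 17.5 to 43.7 CPM in the high-group libraries. In water C, 3.38 µg/L A and 10.2 µg/L E it was under the limit of detection. homer2, for a postsynaptic scaffold, had 26.6 to 27.9 CPM at 0.19 µg/L, 23.2 to 36.2 at 0.74 and 21.2 to 35.8 at 47.2, against 1.47 to 18 in water. It was under the limit in 3.38 µg/L A and 10.2 µg/L A, B and E, while 3.38 µg/L D had 26.9 CPM and 10.2 µg/L D 32.5. rbm47, for an RNA-binding protein of epithelia, held 39.3% of its gene's counts in the high groups and 12.2% in the low ones, with 2.11 CPM in 0.74 µg/L A against 18.6 to 63.8 in the other high-group libraries. Shares of the same kind were 56.9% and 24.4% for elf1, 52.1% and 21.4% for st14, the gene of the epithelial protease matriptase, 37.0% and 12.2% for dock8, and 31.2% and 11.8% for pbxip1a. mmut, for the mitochondrial enzyme methylmalonyl-CoA mutase, kept a like share, 77.4% and 78.2%, and its member had 15.6 to 33.1 CPM in the high groups, while in the low groups only 3.38 µg/L B (24.7) and water C (16.7) reached that range. aplp2, of the amyloid precursor family, held 7.0% and 4.8%, and its single libraries overlapped, from 9.26 to 72.1 CPM in the high groups and from 0.14 to 60.7 in the low ones.

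The transcript of LOC120492893 had 51.1, 58.9 and 62.3 CPM at 0.19 µg/L, 5.76, 41.7, 35.3, 50.4 and 0 at 0.74, and 108, 8.60 and 73.7 at 47.2. It was under the limit in the low groups except for 1.23 CPM in 10.2 µg/L D, and it held 13.3% of its gene's counts in the high groups, so its fold change is that of a minor transcript.

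The other transcripts of the members' genes were not used to choose the members and could be compared between the high and the low groups, although kallisto divides shared reads between them and the members and the split into these groups was made with results of these libraries known. Of 34599 features tested with edgeR's quasi-likelihood test, 6470 were called (18.7%), 9.48% higher and 9.22% lower in the high groups. Only 31554 transcripts were paired with a gene, so these features include transcripts with no gene. The sums miss any unpaired transcript of a member's gene. The share among genes with several transcripts is not given here. Of 58 members' genes with other transcripts, 19 (32.8%) were called, 11 higher and 8 lower. The median log2 difference of these sums was 0.02, with 30 above and 28 below 0, against -0.02 over all features tested.

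The 4 matrix genes among the 19, grouped after their values were seen, were all on the higher side. The other transcripts of col5a1 rose by a log2 difference of 0.57 ± 0.13 (SE, adjusted p = 0.0037), of tnn, for a tenascin, by 0.45 ± 0.12 (adjusted p = 0.011), of col12a1a by 2.66 ± 0.75 (adjusted p = 0.016) and of postnb by 0.34 ± 0.10 (adjusted p = 0.029), by edgeR's quasi-likelihood test. Those of col12a1a were low, with means of 4.25, 1.12 and 2.16 CPM at 0.19, 0.74 and 47.2 µg/L, against 0.541 in water, 0.45 at 3.38 and 0.158 at 10.2 µg/L. By the same test col2a1a and col9a1c did not pass, with 0.29 ± 0.15 (adjusted p = 0.19) and 1.23 ± 0.46 (adjusted p = 0.068). Neither did fn1b, with 0.58 ± 0.26 (adjusted p = 0.14), nor vit, whose other transcripts lay on the lower side, with -0.14 ± 0.19 (adjusted p = 0.69). Outside the matrix, sptbn1 rose by 0.27 ± 0.04 (adjusted p = 0.00011), septin7a by 0.21 ± 0.06 (adjusted p = 0.015) and lpar2b, for a lysophosphatidic acid receptor, by 0.34 ± 0.10 (adjusted p = 0.017).

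In other genes the remaining transcripts went the opposite way to the member. They were lower in the high groups by a log2 difference of -1.34 ± 0.20 for eml3, a microtubule-binding protein gene (adjusted p = 0.0002), -0.29 ± 0.07 for atp5f1c, the gamma subunit gene of ATP synthase (adjusted p = 0.0043), -4.68 ± 1.12 for cep83, a centriole protein gene (adjusted p = 0.0064), and -0.40 ± 0.12 for elf1, a transcription factor gene (adjusted p = 0.022), by edgeR's quasi-likelihood test. With member and other transcripts summed, cep83 and atp5f1c no longer passed (adjusted p = 0.13 and 0.28), while eml3 and elf1 were higher, by 0.28 and 0.41. These sums hold the transcripts chosen for being high in these groups, so the shift towards higher follows in part from the choice. In cep83 the member held 92.9% of the gene's counts in the high groups and 52.0% in the low ones. The remaining counts of cep83 were low, with means of 1.28 CPM in the high groups and 7.17 CPM in the low ones. With counts rounded for the test, their mean at 47.2 µg/L was 0. The log2 difference of -4.68 is larger than the fall between these means, so its size is uncertain. With fragment length as a covariate, 50 of 34599 features were called (0.145%) and none of the 58, and col5a1 then differed by 0.35 (adjusted p = 0.54).

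**Figure D5:**
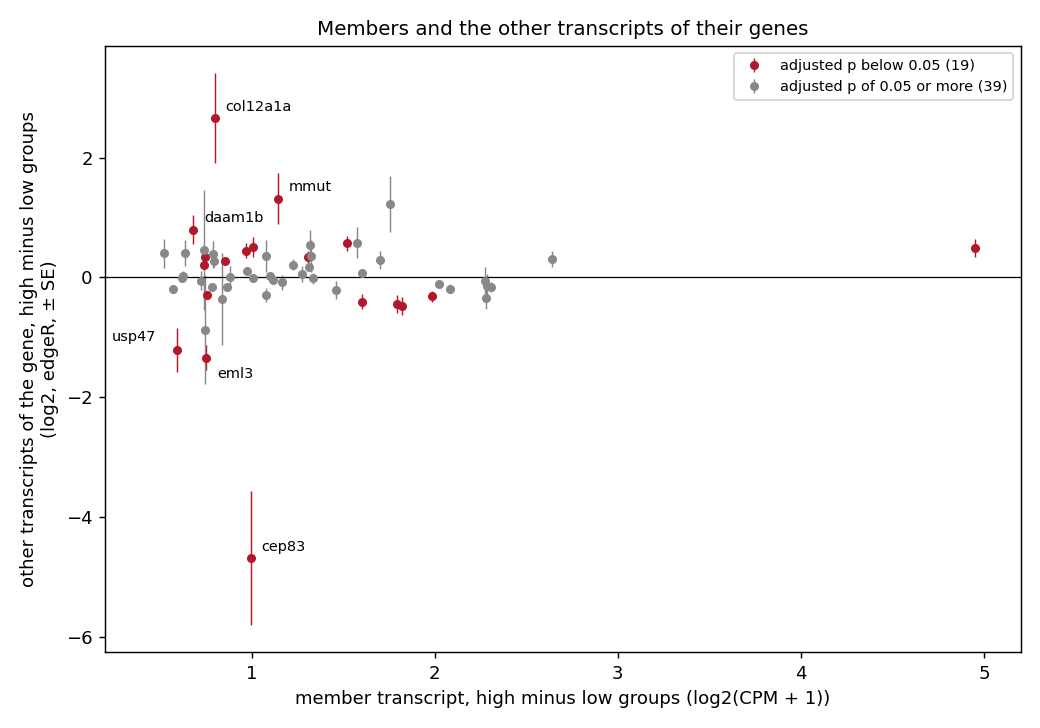
For 58 genes, the difference between high and low groups in the member transcript (x axis, log2(CPM + 1)) against that in the sum of the gene's other transcripts (y axis, log2, edgeR, bars SE). The members were chosen to be above 0 on the x axis, while on the y axis 30 genes lie above and 28 below 0, and red points mark the 19 called.

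Summed over all their transcripts, 97 of the 100 members' genes were higher in the high groups, with a median log2 difference of 0.66. These sums contain the chosen transcripts, and 42 of the genes have members as their only paired transcripts, so this order is part of the choice.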

How the data were processed

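Poly(A) RNA of 26 pools was sequenced from directional libraries, per the labels' protocols. Per the submitters' processing notes, Trimmomatic 0.38, kallisto and DESeq2 were used; the index and genome build were not given in the sources used here. Estimated counts, not always whole numbers, were deposited by the authors for each RefSeq transcript, with TPM, scaled to transcript length. The deposited length and effective length (other values of the same files) gave fragment length, as their median difference over transcripts of at least 3000 bases. The authors' own comparison tables were not used.

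The members and the gene lists were chosen with earlier results of these data known. Gene symbols came from a RefSeq gene table (assembly fPimPro1.hap1.1), matched by accession without version, for 31554 of 57299 transcripts (55.1%). The builds may differ, so no coordinates are given. Numbers of transcripts per gene, shares of a gene's counts and sums per gene cover matched transcripts only.

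CPM is the estimated count scaled to a library sum of 1000000. For tests, estimated counts were rounded and fitted over all 26 libraries with edgeR 4.0.16, limma 3.58.1 and R 4.3.3 (filterByExpr, TMM, robust quasi-likelihood, two-sided, Benjamini-Hochberg adjusted p below 0.05 over all features). Fits were tested on simulated data. There the F-test among the high groups called 16% of 1.5-fold and 70% of 2-fold raises at 47.2 µg/L. The F-test among the low groups called 32% and 84% of such raises at 10.2 µg/L, so small differences were often missed. DESeq2 1.42.0 served as an alternative. The limit of 3 counts covers counting error only. The 46 replicate pairs all differed beyond sampling noise, by 15.7 or more in chi-square per degree of freedom.

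Named members were the 25 with the largest gap, the 10 highest in TPM, those in a gene list, and up to 10 whose other transcripts were called; others are named as chosen after their values were seen. Tables and figures used Python 3, pandas and matplotlib.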

Additional observations from a re-analysis of the deposited data

Results flagged for a closer look

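Each of 204 groups of 5 values (4 summaries per library and the named members, in the 4 groups with 5 libraries) was screened for a library far from the others, which chance alone gives in about 1 in 20 groups; 17 values were found.

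The 3.38 µg/L B library stood above the other 4 of its group in 7 members: col2a1a at 177 CPM (the others up to 62.0), vcanb at 48.9 (up to 29.4), col10a1a at 149 (up to 92.5), col9a1a at 104 (up to 63.9), col17a1a at 26.7 (up to 5.47), mmut, for methylmalonyl-CoA mutase, at 24.7 (up to 10.4) and the atp2a2a transcript XM_039664847.1 at 22.2 (up to 7.32). In fragment length, 3.38 µg/L A was short at 222.3 bases (the others from 237.0) and 10.2 µg/L C long at 246.5 (the others up to 230.2).

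In water, col17a1a was high in E at 39.4 CPM (up to 8.41 in the others), matn4 in D at 83.5 (up to 49.5) and ddit3 in A at 72.9 (up to 52.3). At 10.2 µg/L, col17a1a was high in D at 95.8 CPM (up to 27.8), aplp2, for an amyloid precursor-like protein, in A at 60.7 (up to 16.9) and ankrd52a in E at 23.0 (up to 0.959). The chromatin remodeler gene chd2 was high in 3.38 µg/L E at 23.9 CPM (up to 3.73). dock8, for a guanine nucleotide exchange factor, was low in 0.74 µg/L B at 3.97e-05 CPM, under the limit of detection, against 17.2 to 23.9 in the other 4.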

How the results depend on the processing

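No member was called in either F-test under any alternative. These were edgeR with DESeq2's size factors, no count filter, DESeq2, the replicate block and fragment length as a covariate. Further ones were both B libraries of 0.19 and 47.2 µg/L left out, only the 3 groups compared, sums per gene, and each library left out (0 to 0 members). The choice favours like means within each side, so these counts do not show equal levels. Of the members' genes with other transcripts, 19 of 58 were called in the fit reported and 19 with DESeq2's size factors or without a filter. DESeq2 called 23, fits without single libraries 13 to 22, without both B libraries 11, and with fragment length as a covariate 0. Apart from the fit reported and the covariate, the shares over all features are not given here, so these counts have no background. With members included in the sums, 86 of 100 were called. Those sums hold the transcripts chosen for this difference, so that count follows from the choice. Including the members turned eml3, cep83 and elf1 to 0.28, 0.14 and 0.41. The call of lpar2b was lost without 47.2 µg/L A (0.29, adjusted p = 0.054), and that of elf1 without 0.19 µg/L A (-0.37, adjusted p = 0.053), 0.19 µg/L B (-0.33, adjusted p = 0.062), 47.2 µg/L B (-0.37, adjusted p = 0.052) or 47.2 µg/L C (-0.37, adjusted p = 0.052), all by edgeR; postnb was called in 24 of 26 such fits. Same-letter libraries of different groups correlated at -0.074 to 0.413 in their deviations (median 0.164, 37 of 57 pairs above 0.1). Pairs of other letters had a median of -0.030, with 16 of 222 above 0.1. Libraries of a letter thus shared part of their deviation, though not in every pair. The fits reported had no replicate block. With the block, 22 of 58 were called, 18 of them as before, and the share over all features in that fit is not given here. Computed otherwise, the rule kept 142 of the 150 members with TMM scaling, 142 and 134 with pseudocounts of 0.1 and 5, 93 with group medians, 123 without both B libraries, 116 to 146 without single libraries, 51 with a mean CPM of 1 or more, 61 with 30 or more and 75 with TPM in place of CPM; in the last 2, only 61 and 75 members passed the level minimum, and all of them were kept. In alternatives added after the data had been seen, 39 to 45 matrix list and 28 to 33 collagen transcripts, members included, had a gap above 0 without single libraries, and 44 of 52 and 33 of 40 without both B libraries, against 44 of 53 and 31 of 40 with all libraries. The 3 libraries each at 0.19 and 47.2 µg/L limit the precision there.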
